A study of Rattus norvegicus with 5 samples.

Results

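Neurofilaments are the intermediate filaments of neurons. They are built from a light, a medium and a heavy subunit, encoded by *Nefl*, *Nefm* and *Nefh*, which assemble along the axon and contribute to its calibre. In the developing nervous system the light and medium subunits are generally made first and the heavy subunit later, as axons mature. The tails of the medium and heavy subunits carry many sites for phosphorylation, and the light subunit forms the core of the filament.

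The family is made of every probe set on the Affymetrix rat array used here whose single gene symbol in the platform annotation was *Nefh*, *Nefl* or *Nefm*. There were 5 such probe sets for 3 genes, of 8740 probe sets and 4736 genes analysed. *Nefh* and *Nefl* had 2 probe sets each and *Nefm* had 1. The family had been singled out for the high *Nefh* signal of GFP+ cells, so that its values in those cells are described here without a test. No probe set was left out for a low signal. In the RefSeq gene table of assembly GRCr8, *Nefl* and *Nefm* are direct neighbours among the protein-coding genes, whereas *Nefh* lies elsewhere.

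All RNA came from primary cultures of the hypothalamus of Wistar rat embryos at day 17. GFP+ cells had been transfected with GFP under the minimal *Trh* promoter and selected for fluorescence on a cell sorter, GFP+/- cells were transfected too and went through the sorter with no gate on fluorescence, and NT cells had never been transfected. GFP+ and GFP+/- cells each had 2 arrays and NT cells had 1, and their RNA was pooled from 6, 3 and 3 experiments. By the methods, both arrays of a population took their RNA from the same pool, while the labels name them biological replicates, so the spread between them may be technical. The sorted cells are limited as a model of TRH neurons by what a transfected promoter fragment marks. The *Trh* probe set with the higher mean signal read 115 and 141 on the GFP+, 109 and 106 on the GFP+/- and 96.6 on the NT array, a log2 difference of 0.24 for GFP+ over GFP+/- cells that missed the threshold (limma, adjusted p = 0.761). The other, M36317_s_at, read 89.5 and 40.2 (GFP+), 86.8 and 51.0 (GFP+/-) and 122 (NT), a difference of -0.15 (limma, adjusted p = 0.935). Between GFP+ and GFP+/- cells limma called 0 of 8740 probe sets, so these misses are not read as a lack of *Trh* enrichment.

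The values are MAS 5.0 signals, linear intensities that summarise the probe pairs of a probe set. The authors had brought the arrays to a common mean. Log2 differences and their standard errors (SE) come from one limma fit of all 5 arrays. A standard error that involves the lone NT array assumes that it varies like the others. Signals of different probe sets were not set against each other as levels, since each probe set binds with its own strength.

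The 3 subunits did not share one pattern. The *Nefh* probe set named after an expressed sequence tag (rc_AA818677_at) was bright in GFP+ cells alone. The main *Nefl* and the *Nefm* probe sets were brightest in NT cells, dimmer in GFP+ cells and dimmest in GFP+/- cells. The remaining probe sets of *Nefh* and *Nefl* were dim on every array.

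**Figure D1:**
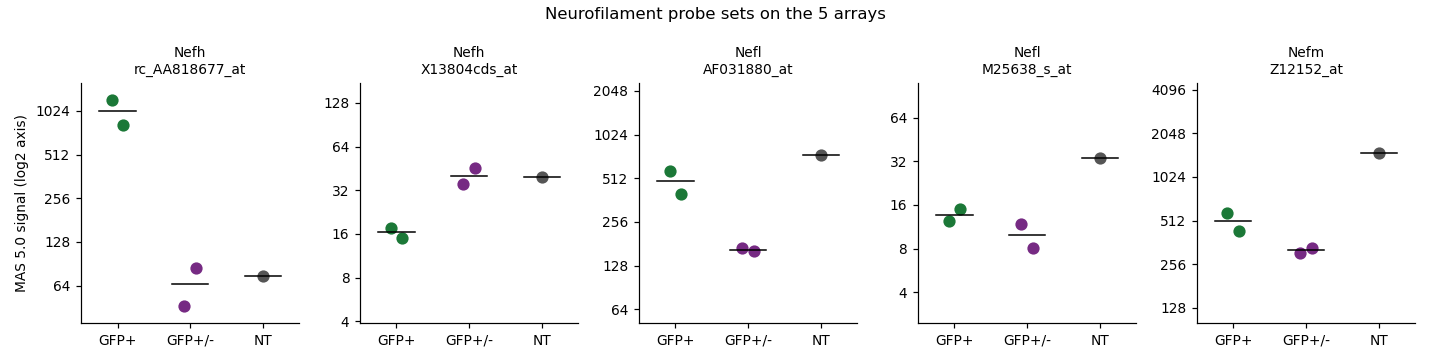
MAS 5.0 signal of the 5 neurofilament probe sets on a log2 axis of equal span in each panel, with 1 point per array of GFP+, GFP+/- or NT cells and a line at the mean of a population. *Nefh* rc_AA818677_at stands at 1224 and 821 in GFP+ cells and between 46.1 and 85.0 elsewhere, whereas *Nefl* AF031880_at and *Nefm* are highest in NT cells.

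The heavy subunit gave the largest difference of the family. Its probe set rc_AA818677_at had signals of 1224 and 821 on the GFP+ arrays, 46.1 and 85.0 on the GFP+/- arrays and 75.1 on the NT array. Both GFP+ arrays lay above the other 3, while the NT signal fell between those of the 2 GFP+/- arrays. The ratio of averaged signals was 15.6 over GFP+/- and 13.6 over NT cells, and the log2 differences were 4.0 (SE 0.38) and 3.74 (SE 0.47). When 1 array was left out, the difference from GFP+/- cells ran from 3.56 to 4.44. The 2 GFP+ arrays differed from each other by 1.49-fold and the 2 GFP+/- arrays by 1.85-fold.

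The other *Nefh* probe set, X13804cds_at, named after a coding sequence, went the opposite way. It read 17.7 and 15.1 in GFP+ cells, 35.2 and 45.4 in GFP+/- cells and 39.6 in NT cells. Both GFP+ arrays were the lowest of the 5, and the NT signal again fell between the GFP+/- signals. The log2 difference was -1.29 (SE 0.46) from GFP+/- and -1.28 (SE 0.57) from NT cells. At these signals the value depended on how dim probe sets were treated. With 16 added to each signal before the logarithm, the differences were -0.79 and -0.78. Within an array, the log2 ratio of the first *Nefh* probe set to the second was 6.11 and 5.77 (GFP+), 0.39 and 0.91 (GFP+/-) and 0.92 (NT). The 2 probe sets assigned to the heavy subunit therefore did not report the same change, and the arrays alone do not tell which of them follows the *Nefh* transcript.

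For the light subunit, the probe set AF031880_at had signals of 578 and 395 (GFP+), 168 and 161 (GFP+/-) and 742 (NT). The 3 populations did not overlap. GFP+ cells stood 2.96-fold above GFP+/- cells by averaged signals, with a log2 difference of 1.54 (SE 0.25), and 1.52-fold below NT cells, with a log2 difference of -0.63 (SE 0.30). As 1 array was left out, the former ran from 1.27 to 1.81 and the latter from -0.91 to -0.36. The second *Nefl* probe set, M25638_s_at, read 12.3 and 15.1 (GFP+), 11.8 and 8.11 (GFP+/-) and 33.6 (NT). It placed the populations in the same order, highest in NT and lowest in GFP+/- cells, but its mean GFP+ to GFP+/- difference of 0.48 log2 units was smaller than its standard error (SE 0.50). In the array maker's naming, _s marks a probe set that can bind several similar transcripts.

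The medium subunit, read from the single probe set Z12152_at, had signals of 580 and 436 (GFP+), 309 and 331 (GFP+/-) and 1486 (NT). The NT array lay far above the other 4, and both GFP+ arrays lay above both GFP+/- arrays. By averaged signals GFP+ cells were 1.59-fold above GFP+/- and 2.92-fold below NT cells, with log2 differences of 0.65 (SE 0.21) and -1.56 (SE 0.26). With 1 GFP+ or GFP+/- array left out these ran from 0.45 to 0.86 and from -1.77 to -1.36.

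By the measure of the study's methods, a ratio of averaged signals of more than 2-fold, 2 of the 5 neurofilament probe sets were higher in GFP+ than in GFP+/- cells, where 8.89% of all probe sets were. These were *Nefh* rc_AA818677_at and *Nefl* AF031880_at. The dim *Nefh* probe set was more than 2-fold lower, as were 4.18% of all. Of the 5 probe sets, 4 had both GFP+ signals above both GFP+/- signals (30.4% of all) and 1 had both below (15.4% of all). Against NT cells, 1 was more than 2-fold higher in GFP+ cells (14.5% of all) and 3 were lower (12.3% of all). Those comparisons share the arrays for which the family was chosen, and nothing is read from their counts.

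**Figure D2:**
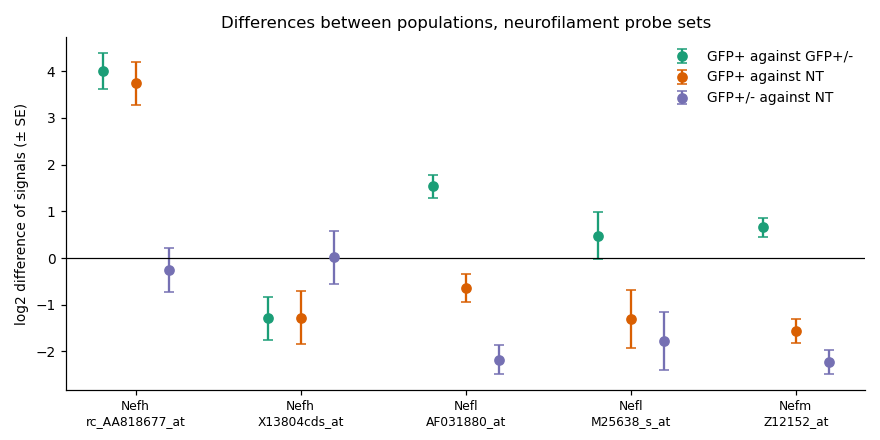
Log2 difference of signals between populations for each neurofilament probe set, as points with bars of 1 standard error from the limma fit of 5 arrays. Only *Nefh* rc_AA818677_at lies above 0 in both comparisons of GFP+ cells, whereas *Nefl* and *Nefm* lie above 0 against GFP+/- and below 0 against NT cells.

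The comparison of GFP+/- with NT cells was not used to choose the family, although its GFP+/- arrays also served in the comparison that was. Here the light and the medium subunit were lower in the transfected, unselected cells. With 1 NT array and GFP+/- arrays from a single RNA pool by the methods, each p-value given against NT cells compares these RNA pools by the spread between arrays, and does not speak for the populations. *Nefl* AF031880_at was 4.51-fold lower by averaged signals, a log2 difference of -2.17 (SE 0.30, limma, adjusted p = 0.0181). *Nefm* was 4.65-fold lower, with -2.22 (SE 0.26, limma, adjusted p = 0.0140). The dim *Nefl* probe set had -1.78 (SE 0.62) and did not pass (limma, adjusted p = 0.145). Neither *Nefh* probe set differed past the test, with -0.26 (SE 0.47, limma, adjusted p = 0.804) for rc_AA818677_at and 0.012 (SE 0.57, limma, adjusted p = 0.994) for X13804cds_at. So 2 of the 5 probe sets were lower past the test, where 5.03% of all probe sets were, and none was higher (4.2%), against 9.23% past the test in either direction. By averaged signals, 3 of the 5 were more than 2-fold lower (15.2% of all) and 0 higher (12.1%), and the same 3 had both GFP+/- signals below the NT signal (44.0% of all).

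These calls rested on few arrays. Without either GFP+/- array the differences were -2.21 to -2.14 for *Nefl* and -2.27 to -2.17 for *Nefm*, but neither gene passed (limma, adjusted p = 0.113 to 0.130), nor with a prior variance without an intensity trend (limma, adjusted p = 0.0852 and 0.0825). Transfection and the RNA pool differed between GFP+/- and NT cells and cannot be told apart, and whether NT cells had also passed the sorter is not given in the sources used here. In RNA from mixed cells, fewer cells of a type and less RNA per cell cannot be told apart either.

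Within an array, the ratio of *Nefl* to *Nefm* was alike in GFP+/- and NT cells and higher in GFP+ cells. The log2 ratio of AF031880_at to the *Nefm* probe set was -0.88 and -1.04 in GFP+/- and -1.0 in NT cells, and it was -0.0051 and -0.14 in GFP+ cells. As the ratio of 2 probe sets it describes an unequal difference between populations and not the amounts of the 2 subunits.

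Of 3 controls of RNA quality, 1 set NT cells clearly apart, and markers of neurons moved with the *Nefl* and *Nefm* values. The ratio of the 3' to the 5' control probe set was 12.7 to 17.6 for *Gapdh* in GFP+ and GFP+/- cells and 5.45 in NT cells. For beta-actin it was 22.9 and 18.7 (GFP+), 31.4 and 14.4 (GFP+/-) and 10.9 (NT). There NT cells were lowest, but by less than the spread between the GFP+/- arrays. The hexokinase control did not follow them, with 1.63 and 0.498 (GFP+), 2.96 and 10.3 (GFP+/-) and 2.41 (NT). The summed signal of 17 measured neuron markers, of 23 listed and none of them a neurofilament subunit, was 36684 and 31316 (GFP+), 24730 and 26991 (GFP+/-) and 52055 (NT). That of 15 fibroblast markers was 21062 and 29739 (GFP+), 56853 and 55907 (GFP+/-) and 26240 (NT), in the opposite order between the transfected populations. Not every member followed this sum. In GFP+/- against NT cells, 11 of the 15 lay above 0 and 4 below. Those below were *Col3a1*, *Dcn*, *Lum* and *Col5a1*, all highest in NT cells. In GFP+ against NT cells, 4 lay above 0 and 11 below, with -2.36 for *Col3a1* and -3.74 for the dim *Dcn*. The 13 measured astrocyte markers, without *Gfap*, summed to between 42130 and 47698 on every array. *Vim*, also a filament of other cells, made up 10280 to 16825 of these sums, and single members differed. In GFP+ against GFP+/- cells, 6 lay above 0 and 7 below, with 1.47 (SE 0.28) for *Aldh1l1*. In GFP+ against NT cells, 7 lay above 0 and 6 below, with -1.12 for *Aldoc* and -1.04 for *Ndrg2*. Endothelial and mural markers (7 measured) summed to 2151 and 3933 (GFP+), 9178 and 11420 (GFP+/-) and 1765 (NT). These sums differed mainly through *Acta2*, with 1053 and 2375 (GFP+), 6561 and 9059 (GFP+/-) and 442 (NT), and *Tagln*. *Pecam1*, *Kdr*, *Flt1*, *Vwf* and *Pdgfrb* differed by 0.031 to 0.23 log2 units between GFP+ and GFP+/- cells. Microglial markers (8 measured) summed to 1063 and 884 (GFP+), 651 and 483 (GFP+/-) and 856 (NT). Oligodendrocyte markers (8 measured) summed to between 1491 and 1661 over all arrays. The part of RNA quality and of cell composition in the neurofilament values was not tested.

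Of the 17 neuron markers, 9 were lower in GFP+/- than in NT cells past the test (5.03% of all probe sets) and none was higher, with a median log2 difference of -1.27 against -0.094 for all probe sets. The values of *Nefl* and *Nefm* (-2.17 and -2.22) lay beyond that median. Among the 9 were *Scg2*, a secretory granule protein (-2.87, limma, adjusted p = 0.0167), *Uchl1*, an abundant neuronal ubiquitin hydrolase (-1.79, limma, adjusted p = 0.0234), and *Gad1*, an enzyme of GABA synthesis (-1.31, limma, adjusted p = 0.0331). In GFP+ against NT cells 3 of the 17 were lower (4.06% of all) and 0 higher, with a median of -0.74 against 0.056. Both counts were 0 with a prior without a trend, and without either GFP+/- array. In GFP+ against GFP+/- cells none passed. There limma called 0 of 8740 probe sets and 13.9% had an unadjusted p under 0.05. The median of the neuron markers was 0.45, against 0.13 for all probe sets, and 16 of the 17 lay above 0. The exception, *Thy1*, had the largest difference of the list in size, -1.75 (SE 0.21). It read 175 and 201 (GFP+), 694 and 574 (GFP+/-) and 317 (NT), and so was also higher in GFP+/- than in NT cells.

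Alpha-internexin, encoded by *Ina*, is a further intermediate filament protein of neurons that co-assembles with the neurofilament subunits. Its probe set with the higher mean signal, M73049_at, read 1265 and 944 (GFP+), 739 and 623 (GFP+/-) and 2047 (NT), the order seen for *Nefl* and *Nefm*. It was lower in GFP+/- than in NT cells (log2 difference -1.59, SE 0.26, limma, adjusted p = 0.0249). The second probe set of *Ina*, rc_AA875659_s_at, named after an expressed sequence tag, read 1083 and 1074 (GFP+), 836 and 765 (GFP+/-) and 438 (NT). There the NT array was the lowest of the 5, with a log2 difference of 1.30 for GFP+ over NT cells (limma, adjusted p = 0.0220). The probe sets of *Ina* thus disagreed on NT cells but both placed GFP+ above GFP+/- cells, by 0.69 (SE 0.21) and 0.43 (SE 0.16) log2 units, neither past the test. Peripherin, *Prph*, the intermediate filament protein typical of peripheral neurons, read between 76.9 and 126 on the 5 arrays with overlapping groups of GFP+ and GFP+/- arrays.

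A like disagreement between probe sets was seen for *Mapt*, which encodes the microtubule protein tau. X79321_at read 7836 in NT cells against 5326 and 3716 in GFP+ and 3009 and 3130 in GFP+/- cells. The expressed sequence tag probe set rc_AI227608_s_at read 390 in NT cells against 1697 and 1199 in GFP+ and 1200 and 1493 in GFP+/- cells. Against NT cells, the GFP+/- difference was -1.35 (limma, adjusted p = 0.0391) by the former and 1.78 (limma, adjusted p = 0.0242) by the latter. The brightest *Mapt* probe set, rc_AA957930_s_at, lay between them, with -0.31 (SE 0.27). It carries the _s of the maker's naming, as do the *Ina* and *Mapt* probe sets that were lowest in NT cells. The files do not place probe sets along their transcripts, and the part of the 3' to 5' ratios in these disagreements was not tested.

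**Figure D3:**
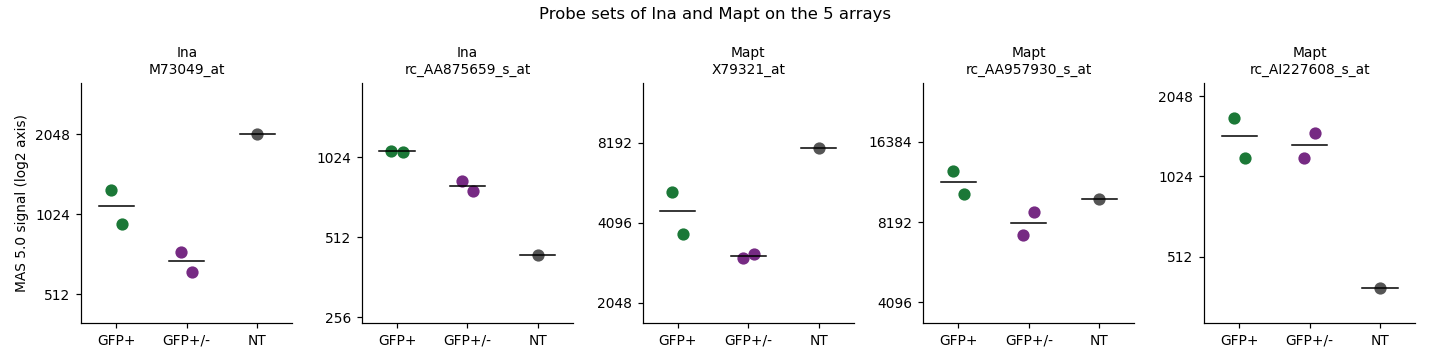
MAS 5.0 signal of each probe set of *Ina* and *Mapt* on log2 axes of equal span, with 1 point per array and a line at the mean of a population. NT cells are highest by *Ina* M73049_at (2047) and *Mapt* X79321_at (7836) and lowest by rc_AA875659_s_at (438) and rc_AI227608_s_at (390).

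Other intermediate filament genes went both ways. Of 13 measured, 0 passed in GFP+ against GFP+/- (0% of all probe sets) or NT cells (8.44%), and *Ina* alone in GFP+/- against NT cells (9.23%). The median log2 difference was 0.27 in GFP+ against GFP+/- (0.13 for all probe sets), 0.087 in GFP+ against NT (0.056) and -0.075 in GFP+/- against NT cells (-0.094). *Vim*, the vimentin of glia, fibroblasts and young neural cells, had signals of 14839 and 13609 (GFP+), 16825 and 12820 (GFP+/-) and 10280 (NT). *Nes*, which encodes the progenitor filament protein nestin, had 1005 and 1206, 1359 and 959, and 973. For both genes the GFP+ and GFP+/- arrays overlapped. In GFP+ against GFP+/- cells, 8 of the 13 lay above 0 and 5 below. The keratins *Krt8* and *Krt18* of simple epithelia had -1.21 and -1.06 there, whereas *Krt19*, *Krt5* and *Krt14* had 0.41, 0.35 and 0.88. In GFP+/- against NT cells, 6 lay above 0 and 7 below, with -1.33 for *Krt14* and -1.26 for *Lmnb1*. These values of keratins and *Lmnb1* came from dim probe sets and none passed the test. *Lmna*, which encodes the nuclear lamins A and C, had log2 differences from -0.20 to 0.53, none past the test.

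Kinases and phosphatases that act on neurofilament tails were mixed. Of 16 measured, 1 was higher and 2 were lower than in NT cells, whether GFP+ or GFP+/- cells were compared with them, and 0 passed in GFP+ against GFP+/- cells. Over all probe sets, 4.38% were higher and 4.06% lower in GFP+ cells, and 4.2% and 5.03% in GFP+/- cells. In GFP+ against GFP+/- cells, 0% of all probe sets passed. With a prior without a trend, 0 genes of the lists described here passed, nor did any in GFP+ against NT cells with 1 array left out. The higher gene was *Gsk3b*, a kinase of neurofilaments and tau, with log2 differences from NT cells of 2.02 in GFP+ (limma, adjusted p = 0.0204) and 2.31 in GFP+/- cells (limma, adjusted p = 0.0152). The lower genes were *Prkcb*, a protein kinase C isoform (-1.66 and -1.99, limma, adjusted p = 0.0211 and 0.0150), and *Ppp2cb*, a catalytic subunit of protein phosphatase 2A (-2.01 and -2.03, limma, adjusted p = 0.0151 and 0.0146). *Cdk5*, a main kinase of the heavy subunit's tail, read 784 and 563 (GFP+), 564 and 398 (GFP+/-) and 358 (NT). Its GFP+ and GFP+/- arrays overlapped, and no difference passed. The signals of its activator *Cdk5r1* overlapped too, between 209 and 273 on the 5 arrays.

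Of 7 measured genes of neurofilament transport and cross-linking, 0 passed in any comparison. Of all probe sets, 0% passed in GFP+ against GFP+/-, 8.44% in GFP+ against NT and 9.23% in GFP+/- against NT cells. The dynein light intermediate chain *Dync1li2* (0.63, SE 0.19, in GFP+ against GFP+/- cells) and the dynactin subunit *Dctn1* (0.74, SE 0.23) lay higher on both GFP+ arrays. So did *Dync1h1* (0.17, SE 0.16) and *Plec* (0.22, SE 0.18), whereas *Dync1i2* lay lower on both (-0.30, SE 0.19). Over all probe sets, 30.4% lay higher on both GFP+ arrays than on both GFP+/- arrays and 15.4% lay lower, and nothing is read from these orders. The kinesin light chain *Klc1* had 5118 and 3838 (GFP+), 3416 and 4704 (GFP+/-) and 6893 (NT), with overlapping GFP+ and GFP+/- arrays. Of 4 measured genes of neurofilament turnover, the calpain small subunit *Capns1* was higher in GFP+ cells when set against NT cells (1.51, limma, adjusted p = 0.0335). The other *Capns1* probe sets had 0.51 and -0.61 there, and neither passed.

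Of 11 axonal microtubule and growth proteins, 2 were lower in GFP+/- than in NT cells past the test (5.03% of all probe sets). They were *Map2*, a microtubule protein of dendrites and young neurites (-1.70, limma, adjusted p = 0.0256), and *Crmp1*, a collapsin response mediator (-1.09, limma, adjusted p = 0.0397). A dimmer *Map2* probe set, X17682_s_at, went the other way (2.84, limma, adjusted p = 0.0130). *Dpysl3*, another member of the *Crmp1* family, also stood higher in GFP+ against NT cells (3.33, limma, adjusted p = 0.0407), at signals of 21.3 and 35.9 against 2.74. *Gap43*, a growth cone protein, had 7389 and 6501 (GFP+), 6008 and 6802 (GFP+/-) and 11030 (NT) and passed in none. The median of the 11 in GFP+ against GFP+/- cells was 0.45, and 0.12 with a gene read as the mean of its probe sets. Over the 51 genes of the 5 lists, 0 passed in GFP+ against GFP+/- cells. As 0 of all 8740 probe sets passed there, that count says nothing of the lists. In GFP+ against NT cells, 3 were higher and 2 lower (4.38% and 4.06% of all probe sets, 8.44% together). In GFP+/- against NT cells, 1 was higher and 5 lower (4.2% and 5.03% of all). With the fit limited to the brightest 41% of probe sets, 4.02% of those tested passed between GFP+ and GFP+/- cells, 31.6% between GFP+ and NT cells and 32.4% between GFP+/- and NT cells.

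**Figure D4:**
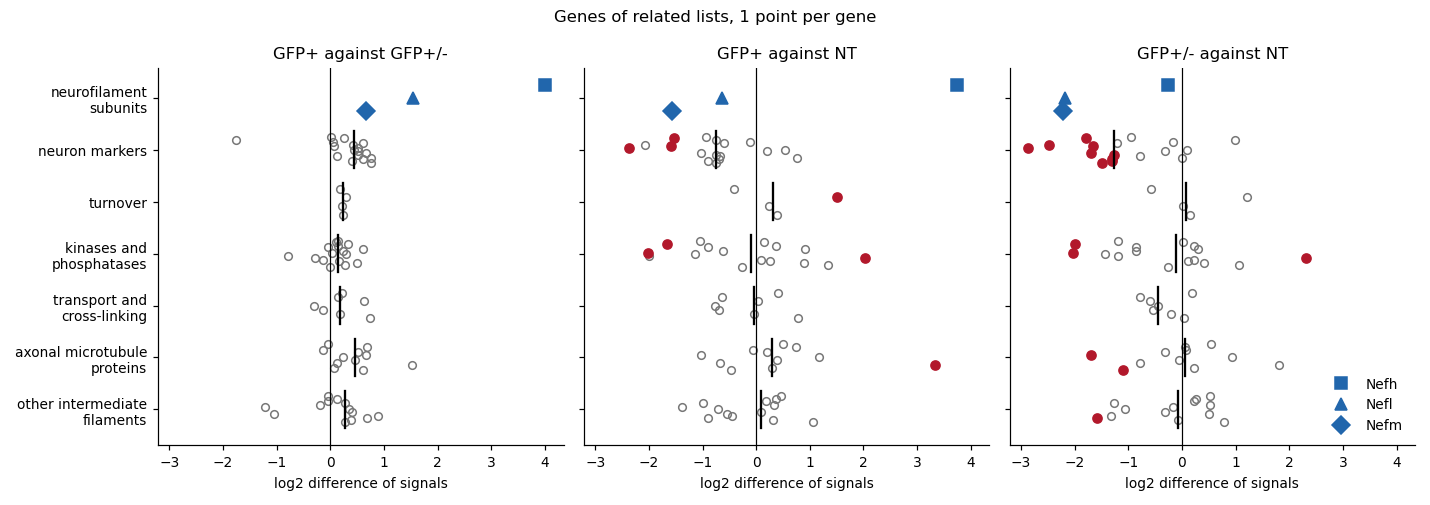
Log2 differences for the genes of 5 lists related to neurofilaments and for neuron markers, with 1 point per gene, red where limma gave an adjusted p under 0.05 and a line at the median of each list. Blue symbols show the probe set of each subunit with the highest mean signal, without a test colour, and *Nefl* and *Nefm* lie near -2.2 in GFP+/- against NT cells.

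The arrays were also searched for the transcripts whose pattern over the 5 arrays came nearest to that of each subunit. Likeness was the root mean square distance of log2 signals after each probe set was centred on its own mean, among the brightest 41% of probe sets with 1 gene. It says nothing of shared function or control. The family was chosen for the *Nefh* signal in GFP+ cells, so the search from *Nefh* only describes which probe sets share that pattern. The brightness filter used the mean over all 5 arrays, so high GFP+ signals could by themselves bring a probe set past it. The *Nefh* pattern, high on the GFP+ arrays alone, had no match as close as those of *Nefl* and *Nefm* among these. The distance was not scaled for the spread of a probe set, so a wide pattern such as that of *Nefh* tends to give larger distances. The nearest was *Mdm2*, whose product restrains p53, at a distance of 0.58, with signals of 1180 and 1519 (GFP+), 157 and 156 (GFP+/-) and 153 (NT). It was followed by *Txnip* (0.73), *Klf4* (0.98), *Cxcl10* (0.99) and *Atf3* (1.02). *Nefl* and *Nefm* were farther from *Nefh* than these, at 1.70 and 2.10.

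The *Nefl* pattern was nearest to that of *Ccng1*, which encodes cyclin G1, at a distance of 0.11. It read 1672 and 1020 (GFP+), 532 and 516 (GFP+/-) and 2194 (NT). *Add1*, the cytoskeletal adducin (0.24), *Pkia*, an inhibitor of protein kinase A (0.29), *Mtmr7* (0.29) and *Scd*, a fatty acid desaturase (0.30), came next, all nearer than *Nefm* (0.45). The *Nefm* pattern had closer matches. *Cd24*, a surface protein of young neurons, lay at 0.10 with 4634 and 3402 (GFP+), 2471 and 2203 (GFP+/-) and 10752 (NT). *Calcr* (0.11), *Ulk2* (0.11), the microtubule-severing *Spast* (0.12) and *Uchl1* (0.13, by its probe set D10699_at) followed. For each subunit's 5 nearest, quantile normalization kept 5 for *Nefh*, 3 for *Nefl* and 3 for *Nefm*. A search over all probe sets, dim ones included, kept 1, 2 and 1. In that search 4 dimmer probe sets came nearer to *Nefh* than *Mdm2*, those of *Myh3* (0.18), *Apoa1* (0.38), *Ctrb1* (0.43) and *Strn3* (0.44).

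**Figure D5:**
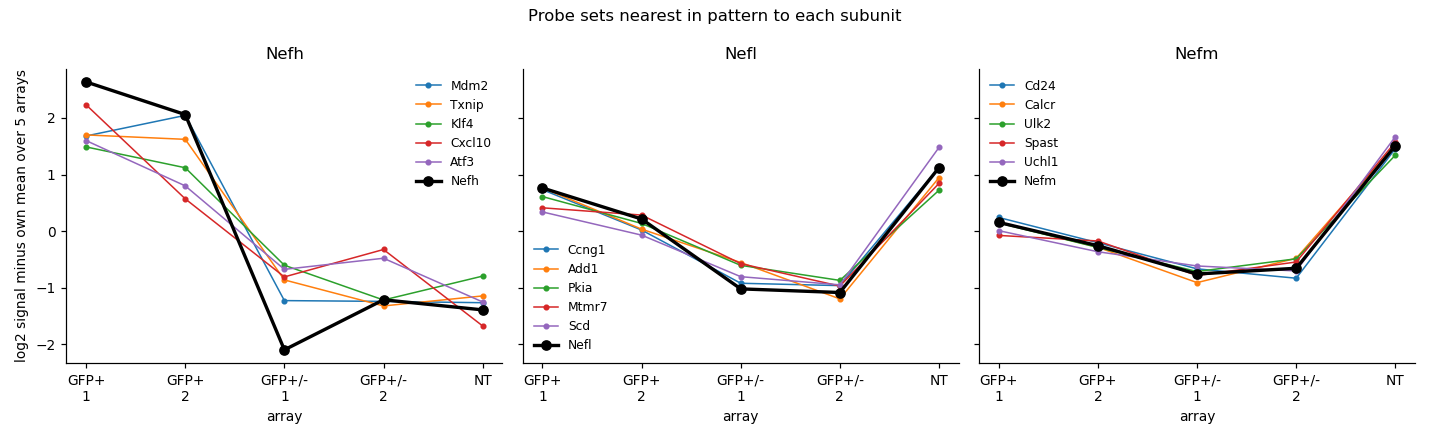
Log2 signal minus the mean over 5 arrays for each subunit's brightest probe set (black) and its 5 nearest probe sets (colours), with lines joining the values of one probe set across arrays that have no order. *Nefh* and its neighbours stand high on the 2 GFP+ arrays, *Nefl* on GFP+ and NT arrays, and *Nefm* mainly on the NT array.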

How the data were processed

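The 5 probe sets, chosen by gene symbol, were read on 5 Affymetrix rat arrays. The authors deposited MAS 5.0 signals, a linear intensity per probe set, with each array scaled by one factor. The 2% trimmed mean of the deposited signals was 501 on each array, and the median lay between 102 and 116. The methods state a target of another size. Detection calls were not used here. Of 8799 probe sets, 59 controls were left out. The annotation gave 1 gene for 7006 of the 8740 left, several for 308 and none for 1426. Symbols were updated for the 6985 whose gene ID was found in RefSeq (GRCr8). Where a listed gene had several probe sets, the brightest stood for it.

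Signals under 1 were set to 1, taken as log2 and fitted with limma 3.58.1 in R 4.3.3, with the 3 population means as the only terms and a prior variance that followed signal. The Benjamini-Hochberg adjustment ran over 8740 probe sets, the threshold was 0.05, and no p was taken for members in comparisons of GFP+ cells. Summaries used pandas 2.3.3 and numpy 2.4.6 under Python 3.11.15, and figures matplotlib 3.10.9. The fit was tested on simulated data. The members and the lists were chosen with earlier results of these data known. Named from the lists were genes that passed and, in some lists, others among the 4 of highest mean signal. *Tubb2b* and *Stmn1*, the brightest of the axonal list, were left out of the text above and passed in no comparison. *Prph*, *Cdk5*, *Cdk5r1*, *Dctn1*, *Plec*, *Krt8*, *Krt18*, *Krt19*, *Krt5*, *Krt14* and *Lmnb1* were added after values were seen. So were the named cell type markers, the dimmer matches to *Nefh* and further probe sets of named genes. The alternatives were quantile normalization, equal medians, 16 added to each signal, the brightest 41% and a prior without a trend. Further ones were only GFP+ and GFP+/- arrays, a replicate block and each GFP+ or GFP+/- array left out. The NT array was never the one left out, so ranges against NT cells do not cover its own spread. No sequence of a member was held in the tables used. The number of arrays limits the precision.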

Additional observations from a re-analysis of the deposited data

How the results depend on the processing

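Across the scalings, the offset and the arrays left out, *Nefh* rc_AA818677_at, *Nefl* AF031880_at and *Nefm* kept their direction in both comparisons of GFP+ cells. The prior, the probe set filter, the fit without NT cells and the replicate block cannot move these differences. *Nefh* rc_AA818677_at also owes its place among the brightest 41% to its GFP+ signals. The family was chosen on such values, so their direction is a description only. Counts of neurofilament probe sets more than 2-fold lower fell with 16 added to each signal, and among the brightest 41%, which left out both dim probe sets. They went from 1 to 0 in GFP+ against GFP+/- and from 3 to 1 in GFP+ against NT cells. In GFP+/- against NT cells, 2 probe sets passed the test and 0 did with a prior without a trend. With 1 array left out the count was 0 to 2, lost without either GFP+/- array. There the differences of *Nefh* ran from -0.71 to 0.18 for rc_AA818677_at, with the sign turned without GFP+/- replicate 1, and from -0.17 to 0.20 for X13804cds_at, with the sign turned without GFP+/- replicate 2, and none passed.

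Of the 51 related genes, 3 higher and 2 lower in GFP+ against NT cells became 0 and 0 with a prior without a trend and with any 1 array left out (0 to 0), and the lower ones became 6 among the brightest 41%. In GFP+/- against NT cells, 1 higher gene became 2 with equal medians, 3 among the brightest 41% and 0 with a prior without a trend (0 to 1 with 1 array left out), and 5 lower ones became 9 among the brightest 41% and 0 with a prior without a trend (0 to 3 with 1 array left out). For the neuron markers, tried after seeing the data, 9 lower in GFP+/- against NT cells became 0 with a prior without a trend (0 to 3 with 1 array left out), and 3 lower in GFP+ against NT cells became 6 among the brightest 41% and 0 with a prior without a trend (0 to 0). In the fit of 4 arrays with a block for the replicate number, 0 related genes passed. The *Nefh* difference stayed 4.0, as it must with a balanced block. Same-numbered arrays deviated together only weakly (r = 0.063 across all probe sets and 0.20 across the brightest, which are not independent), with 2 pairs, so the numbers were not taken as pairs. Fewer arrays or probe sets account for some changes by construction, and otherwise the cause was not tested. Of the 5 nearest patterns, those shared were 1, 2 and 1 when all probe sets were searched and 5, 3 and 3 with quantile normalization, for *Nefh*, *Nefl* and *Nefm*.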
